A study of Mus musculus with 40 samples.

Results

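The genes described here are 9 transcription factors and surface or cytoskeletal proteins that mark the neural crest: the AP-2 factors Tfap2a, Tfap2b and Tfap2c, the homeodomain factors Pax3, Msx1 and Msx2, the forkhead factor Foxd3, the neurotrophin receptor Ngfr and the intermediate filament nestin (Nes). They were taken by name, whatever their level, out of 51789 Ensembl genes in a count table of cultured mouse melanoma cells, and all 9 were found. The table held 40 libraries of QuantSeq 3′ RNA sequencing, 2 for each of 20 groups. B16 (B16-F10) cells were compared as a control clone (Ctrl) and a Bmal1 knockout clone (KO). YUMM2.1 cells, from a tumor with mutant Braf, 1 Cdkn2a allele lost and a stabilised beta-catenin allele, were compared as the parental line and as YUMM2.1 KO, which is 1 CRISPR clone without Bmal1. YUMM1.7 cells carry mutant Braf and lack Cdkn2a. YUMM2.1, YUMM2.1 KO and YUMM1.7 cells received by lentivirus an empty vector (EV), wild-type Bmal1 (WT) or a form without the DNA-binding helix-loop-helix domain (dHLH), and were sorted for GFP. A further 9 groups were YUMM2.1 EV, WT or dHLH cells with a control hairpin (shNC) or 1 of 2 hairpins against Myh9 (shMyh9#2 and shMyh9#4). YUMM2.1 and YUMM1.7 groups not named KO were not edited at Bmal1, so WT and dHLH there are present beside the cells' own gene. The study describes dHLH as dominant negative: it pairs with Clock and inhibits the cells' own Clock-Bmal1 activity. It reports a disrupted clock in YUMM2.1 cells with dHLH and a retained one with EV and WT.

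The neural crest is a migratory population of the vertebrate embryo that leaves the dorsal neural tube and forms melanocytes, Schwann cells, peripheral neurons and facial skeleton. Bone morphogenetic proteins induce Msx genes at the border of the neural plate, Pax3 and the AP-2 factors specify the border and the crest, and Foxd3 keeps crest cells multipotent and restrains the melanocyte fate. Ngfr, which binds neurotrophins, and nestin persist on crest stem cells and Schwann cell precursors, while melanocytes use Pax3, Sox10 and Mitf. In melanoma, high Ngfr with low pigment genes is used to recognise a crest-like cell state. The study lists it apart from an undifferentiated state high in Sox9 and Axl.

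Levels are given as CPM, which are counts divided by the library's TMM-scaled total. Differences are log2 fold changes with their standard error (SE) from edgeR's quasi-likelihood test, adjusted over all genes tested by the Benjamini-Hochberg method, and a gene was called at an adjusted p under 0.05. Library totals ran from 3643332 to 22970049 counts. Libraries of a group are described as biological replicates for B16, hairpin-free parental YUMM2.1, EV with shNC or shMyh9#2, and WT and dHLH with shNC. Those of YUMM2.1 KO are called duplicates. YUMM1.7 libraries are called biological replicates too, without a construct named, so those with WT or dHLH may not be covered. Nothing used here describes those of EV cells with the other Myh9 hairpin, or of WT and dHLH cells with a Myh9 hairpin. In YUMM2.1 KO, in these undescribed groups and perhaps in YUMM1.7 with WT or dHLH, p-values may measure only technical spread. A permutation test of 2 against 2 cannot go below 0.333. As these are bulk cultures, a smaller share of cells and less RNA per cell cannot be told apart.

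Some libraries call for care. Of 8 columns of a normalised table that came with the study, 2 matched a deposited library of another name: the column YUMM2.1 EV 2 held the library labelled WT 1, and the column WT 1 held the library labelled EV 2. Tests of the 9 genes in hairpin-free YUMM2.1 cells are therefore given as labelled, with these names exchanged, and without both libraries. Results on other genes and lists, the correlations and the order of groups are given as labelled only. All calls of the 9 genes in the line comparisons described below stood under the exchange and without both. Arntl, the gene of Bmal1, had 319 and 221 counts in B16 Ctrl and 326 and 240 in the libraries labelled B16 KO, and 3′ tags need not lie in an edited or delivered part of a gene, so its counts check no label. Myh9 was lower with each hairpin, with log2 fold changes of -2.04 to -0.42, and was called in all 6 comparisons. The melanocyte genes Sox10, Mitf, Tyr, Tyrp1, Dct, Pmel and Mlana together reached 19656 to 26032 CPM in B16 and 10.7 to 14.8 CPM in YUMM1.7, with 450 to 620 CPM in YUMM2.1 KO and 31.8 to 556 CPM in the other YUMM2.1 libraries. Tyrp1 and Mlana were at 0 in all 36 YUMM libraries. Of 12 markers of other cell types, the summed level was 151 to 180 CPM in YUMM1.7 and 6.71 to 39.7 CPM elsewhere, and Epcam was at 0 throughout.

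The regions before Foxd3, Ngfr and Nes, which all fell with each construct in YUMM2.1 cells with shNC, are printed. The study concerns Bmal1, which binds the E-box. RefSeq on GRCm38.p6 gave 8 windows of 250 bases before a transcript start for 7 of the 9 genes, with no entry for Pax3 or Tfap2c. They were searched on both strands for the E-box CACGTG, the AP-1 motif TGANTCA and the AP-2 motif GCCNNNGGC, which 6.02%, 6.75% and 13.7% of all 32851 such windows hold. The only match was 1 E-box, in capitals, from -217 to -212 relative to the start of Foxd3 (chr4:99656049-99656298, + strand).
Foxd3: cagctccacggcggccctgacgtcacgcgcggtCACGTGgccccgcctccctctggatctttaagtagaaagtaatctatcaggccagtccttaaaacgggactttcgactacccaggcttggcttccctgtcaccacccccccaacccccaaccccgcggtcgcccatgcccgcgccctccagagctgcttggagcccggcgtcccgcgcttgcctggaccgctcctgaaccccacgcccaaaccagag
Ngfr (chr11:95587699-95587948, − strand): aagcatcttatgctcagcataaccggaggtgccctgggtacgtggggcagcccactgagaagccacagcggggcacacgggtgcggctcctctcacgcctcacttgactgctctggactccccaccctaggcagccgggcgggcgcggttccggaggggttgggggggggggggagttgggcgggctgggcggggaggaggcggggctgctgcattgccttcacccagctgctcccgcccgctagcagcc
Nes (chr3:87970843-87971092, + strand): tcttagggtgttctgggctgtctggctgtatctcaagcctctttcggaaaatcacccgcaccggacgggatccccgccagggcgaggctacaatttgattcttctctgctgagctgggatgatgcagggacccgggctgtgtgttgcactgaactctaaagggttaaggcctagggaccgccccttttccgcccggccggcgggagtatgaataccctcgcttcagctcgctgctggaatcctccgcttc
A match is a description of the letters in the window, and the windows of Ngfr and Nes, which hold none of the 3 motifs, are shown for comparison. The 3 windows are rich in G and C, at 65.6% for Foxd3, 70.4% for Ngfr and 58.8% for Nes.

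The cell lines differed in which crest genes they used. Pax3 was highest in B16, Tfap2b, Tfap2c and Msx1 in YUMM1.7, and Foxd3, Ngfr and Nes in YUMM2.1. Of 8 genes tested between YUMM1.7 EV and YUMM2.1 EV, 8 were called (5 higher and 3 lower in YUMM1.7), where 37.1% of all genes were called. Of 8 tested between B16 Ctrl and YUMM2.1 EV, 6 were called against a background of 54.3%, and between B16 Ctrl and YUMM1.7 EV also 6 of 8, against 54.5%. Each line stands for itself, and line, genotype and culture history cannot be told apart.

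Among the AP-2 factors, Tfap2b separated the lines most. Tfap2b (chr1:19208914-19238576) had 283 and 272 CPM in YUMM1.7 EV and 153 and 135 CPM in YUMM2.1 EV, but 1.44 and 0.0969 CPM in B16 Ctrl, which is 30 and 2 counts. Both YUMM lines thus expressed it and B16 held near none. Its log2 fold change was -7.56 (SE 0.40, adjusted p = 1.72e-07) between B16 Ctrl and YUMM2.1 EV, and it ran from -10.40 without B16 Ctrl replicate 1 to -6.68 without replicate 2, called each time. Between YUMM1.7 EV and YUMM2.1 EV it was 0.94 (SE 0.25, adjusted p = 0.0154), a call that was lost without either YUMM1.7 EV library (adjusted p = 0.0988 without replicate 1 and 0.0827 without replicate 2). Tfap2a (chr13:40715302-40738376), which overlaps 3 genes on the other strand, was present in every library and ran the other way: 78.8 and 69.8 CPM in B16 Ctrl, 34.2 and 41.8 CPM in YUMM1.7 EV, 20.5 and 28.6 CPM in YUMM2.1 EV. The log2 fold change of Tfap2a was 1.58 (SE 0.17, adjusted p = 3.04e-05) between B16 Ctrl and YUMM2.1 EV. It was 0.64 (SE 0.17, adjusted p = 0.0153) between YUMM1.7 EV and YUMM2.1 EV, a call lost without YUMM1.7 EV replicate 2 (0.49, adjusted p = 0.133). Tfap2c (chr2:172549593-172558622) was seen in YUMM1.7, with 27 to 42 counts in each of its 6 libraries, and had 0 to 6 counts in the other 34. Its ratio between YUMM1.7 EV and YUMM2.1 EV was 19.0, with a 95% exact counting interval of 6.19 to 94.7, and was 12.4 without YUMM2.1 EV replicate 1 and 32.2 without replicate 2.

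Pax3 (chr1:78101267-78197134), which activates Mitf in the melanocyte lineage, was highest in B16, the line with the highest summed melanocyte genes. It had 440 and 437 CPM in B16 Ctrl and 500 and 424 CPM in the libraries labelled B16 KO. The 6 YUMM1.7 libraries lay between 103 and 109 CPM, and the 30 libraries of YUMM2.1 origin were lower still, at 47.4 to 63.9 CPM in YUMM2.1 KO and 26.1 to 47.9 CPM in the others. The log2 fold change of Pax3 was 3.29 (SE 0.10, adjusted p = 4.9e-09) between B16 Ctrl and YUMM2.1 EV, and 1.24 (SE 0.10, adjusted p = 7.06e-06) between YUMM1.7 EV and YUMM2.1 EV. YUMM1.7, with more Pax3, had the lower Sox10: 1.51 and 1.12 CPM in its EV libraries against 504 and 485 CPM in YUMM2.1 EV.

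Msx1 (chr5:37820485-37824583), a homeodomain target of BMP signals, was abundant in YUMM1.7 alone. Its EV libraries had 186 and 176 counts (16.5 and 16.4 CPM), while YUMM2.1 EV and the B16 libraries had 0. Against 3 counts over the group, Msx1 was at least 117-fold higher in YUMM1.7 EV than in YUMM2.1 EV, a bound of 50.8 without YUMM2.1 EV replicate 1 and 65.8 without replicate 2. The hairpin libraries of YUMM2.1 reached 14 counts at most. In a list of the BMP pathway, the ligand Bmp2 (202 CPM in YUMM1.7 EV, 7.16 CPM in YUMM2.1 EV, log2 fold change 4.86, SE 0.26) and the BMP antagonist Grem1 (248 and 8.90 CPM, 4.86, SE 0.46) were called higher in YUMM1.7 EV. Of 16 genes of that list tested, 5 were higher and 3 lower, where 37.1% of all genes were called, with a median log2 fold change of 0.16. Msx2 (chr13:53466884-53473074) had 0 to 3 counts in each of the 40 libraries and was tested nowhere.

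Foxd3, Ngfr and Nes were highest in YUMM2.1. Foxd3 (chr4:99656299-99658622), which overlaps 1 annotated gene on the same strand, had 479 and 120 counts in YUMM2.1 EV, 1 count in each YUMM1.7 EV library and 0 in the other 4 YUMM1.7 and all 4 B16 libraries. The ratio of YUMM2.1 EV to YUMM1.7 EV was 310.1, with a 95% exact counting interval of 85.5 to 2566, and against B16 Ctrl Foxd3 was at least 390-fold higher. These values depend on the YUMM2.1 EV library used: without replicate 1 the ratio was 142.6 and the bound 179.5, and without replicate 2 they were 439.3 and 553. The bound was 194.1 without B16 Ctrl replicate 1 and 196.2 without replicate 2. Ngfr (chr11:95568818-95587735) reached 390 and 385 CPM in YUMM2.1 EV. YUMM1.7 EV held 2.48 and 1.4 CPM of it, and B16 Ctrl 2.06 and 0.63 CPM. Its log2 fold change was -7.62 (SE 0.31, adjusted p = 8.04e-08) between YUMM1.7 EV and YUMM2.1 EV and -8.19 (SE 0.31, adjusted p = 1.7e-08) between B16 Ctrl and YUMM2.1 EV (-9.25 without B16 Ctrl replicate 1 and -7.59 without replicate 2, called each time), while B16 Ctrl and YUMM1.7 EV overlapped (adjusted p = 0.322). Without B16 Ctrl replicate 1, Ngfr was called lower in B16 Ctrl than in YUMM1.7 EV (-1.63, adjusted p = 0.00694), and leaving out any 1 of the other 3 libraries gave no call, with differences up to 0.04. Nes (chr3:87971078-87980451) was present in all lines and graded. B16 Ctrl had 58.5 and 55.6 CPM of Nes, YUMM1.7 EV had 185 and 171, and YUMM2.1 EV had 375 and 372, and all 3 steps were called (log2 fold changes of -1.07, -1.67 and -2.74, each with SE 0.09).

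**Figure D1:**
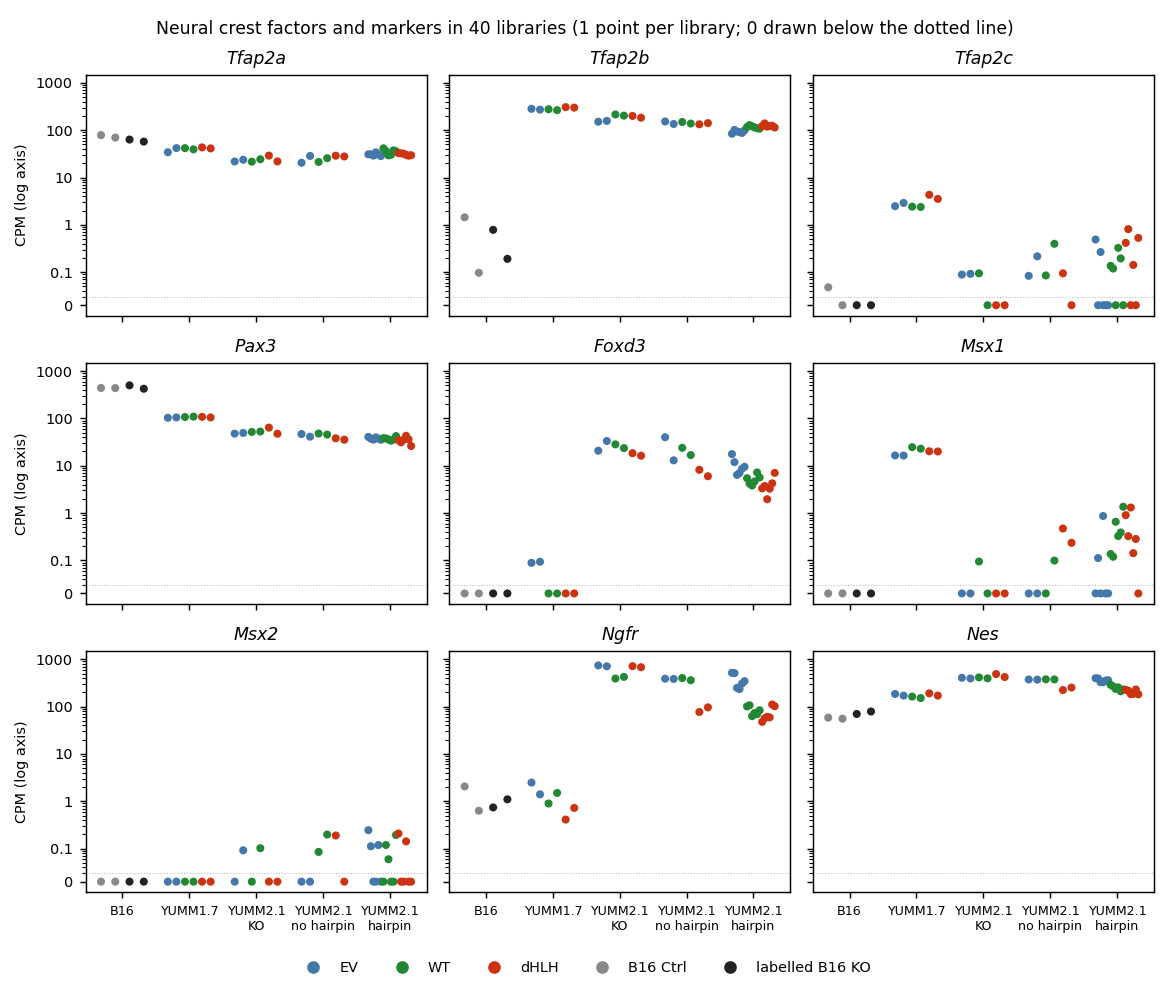
Level of each gene in each of the 40 libraries (points, CPM on a log axis, 0 drawn under the dotted line), by cell line and colored by construct. Foxd3 and Ngfr stand high in YUMM2.1 and near 0 in B16 and YUMM1.7, Tfap2c and Msx1 stand high in YUMM1.7, and Msx2 stays at 0 to 3 counts everywhere.

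The question in B16 and YUMM2.1 KO cells was what the loss of Bmal1, or its return, changed. In B16, 0 of 5 genes tested were called by edgeR (0.440% of all genes), and 0 by DESeq2 or at an unadjusted p under 0.05. Tfap2a was lower in the libraries labelled B16 KO, at 63.4 and 57.4 CPM, without overlap with Ctrl (log2 fold change -0.30, SE 0.17, adjusted p = 0.514), and Nes had 70.0 and 78.9 CPM there against 58.5 and 55.6 CPM (0.38, SE 0.17, adjusted p = 0.454). Without B16 KO replicate 1 these genes were called, at -0.36 (adjusted p = 0.0132) and 0.47 (adjusted p = 6.23e-04), and without any 1 of the other 3 libraries neither was. YUMM2.1 KO EV, compared with YUMM2.1 EV, had more Ngfr in each library, 743 and 712 CPM against 390 and 385 CPM, with a log2 fold change of 0.92 (SE 0.20, adjusted p = 0.0569). Thus 0 of 8 genes tested were called by edgeR or DESeq2 as labelled (1.75% of all genes), with Ngfr at an unadjusted p of 0.00115. With the exchanged names Ngfr was called at 0.88 (adjusted p = 4.56e-04), and without both libraries at 0.91 (adjusted p = 0.00357). The difference in Ngfr was also called without YUMM2.1 EV replicate 1 (0.93, adjusted p = 0.00235). For Foxd3 the sign depended on the EV library kept: the difference was 0.03 as labelled, 1.07 without EV replicate 1 (adjusted p = 0.0431), -0.55 without EV replicate 2 and -0.23 under the exchange, the last 2 not called. The comparison of YUMM2.1 KO EV with YUMM2.1 EV is of 1 clone with a line, and that in B16 is of a knockout clone with a control clone. In neither can clone and knockout be told apart.

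In YUMM2.1 KO cells, Ngfr was lower with WT, and its difference with dHLH was small and not called. Ngfr was 743 and 712 CPM with EV, 392 and 425 CPM with WT and 717 and 682 CPM with dHLH. Only the WT libraries stood apart, and WT cells had 1.79-fold less Ngfr than EV cells (log2 fold change -0.84, SE 0.09, adjusted p = 6.07e-05). The dHLH cells differed from EV by -0.06 (SE 0.09, adjusted p = 0.688) and from WT by 0.78 (SE 0.09, adjusted p = 5.28e-04). Tfap2b rose with each construct, from 151 and 157 CPM with EV to 215 and 203 CPM with WT (0.43, SE 0.08, adjusted p = 0.00419) and 200 and 184 CPM with dHLH (0.31, SE 0.08, adjusted p = 0.0277). Foxd3 fell with dHLH, from 20.8 and 33.3 CPM to 18.4 and 16.3 CPM (-0.64, SE 0.19, adjusted p = 0.044), and was 28.3 and 23.6 CPM with WT (-0.07, SE 0.18, adjusted p = 0.863). In counts, 2 of 6 genes tested were called with WT (11.2% of all genes), 2 with dHLH (10.9%) and 1, Ngfr, between the constructs (0.877%).

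The calls of Ngfr in the knockout clone stood without any 1 library. Those of Tfap2b were lost for WT without EV replicate 1 (adjusted p = 0.0785) or WT replicate 1 (0.0758), and for dHLH without EV replicate 1 (0.218), EV replicate 2 (0.154) or dHLH replicate 1 (0.0869). The call of Foxd3 with dHLH was lost without EV replicate 2 (-0.27, adjusted p = 0.503) and without either dHLH library (0.0655 and 0.109). Without dHLH replicate 2, Pax3 (0.38, adjusted p = 0.0353) and Nes (0.27, adjusted p = 0.0225) were called higher with dHLH, and leaving out any 1 of the other 3 libraries called neither (lowest values -0.04 for Pax3 and 0.06 for Nes).

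In parental YUMM2.1 cells without a hairpin, Ngfr and Nes fell with dHLH, and with WT as labelled no gene was called. Ngfr was 390 and 385 CPM with EV, 402 and 361 CPM with WT and 77.1 and 96.6 CPM with dHLH, so that the dHLH libraries lay far below the other 4. Against EV the fold was 4.40 (log2 fold change -2.14, SE 0.15, adjusted p = 0.00121), and it was -2.18 with the exchanged names and -2.16 without both libraries, called each time. Nes fell from 375 and 372 CPM to 224 and 253 CPM (-0.62, SE 0.12, adjusted p = 0.0194), with -0.64 (adjusted p = 0.0023) under the exchange. The call of Nes was lost without both libraries (-0.65, adjusted p = 0.127), without EV replicate 1 (0.0872), EV replicate 2 (0.0508) or dHLH replicate 1 (0.0737). Foxd3 had 40 and 13 CPM with EV, 23.9 and 16.8 CPM with WT and 8.2 and 6.0 CPM with dHLH, and its log2 fold change of -1.88 (SE 0.51) had an adjusted p of 0.0556. Foxd3 was called with the exchanged names (-2.14, adjusted p = 8.65e-04), without both libraries (-2.48, adjusted p = 4.44e-05), without EV replicate 2 alone (-2.48, adjusted p = 0.00503) and with the replicate number as a block (-1.78, adjusted p = 0.00159). It was not called without EV replicate 1 (-0.84, adjusted p = 0.22) or without either dHLH library, so its size rests on the EV library with 40 CPM. As labelled, 2 of 6 genes tested were called (13.2% of all genes) and 4 under the exchange, which also called Tfap2a higher (0.45, adjusted p = 0.0392). Between dHLH and WT, Ngfr (-2.12, SE 0.15) and Nes (-0.65, SE 0.12) were called (13.0% of all genes). There the call of Nes was lost without both libraries (adjusted p = 0.194), WT replicate 1 (0.157), WT replicate 2 (0.102) or dHLH replicate 1 (0.0704). Foxd3 differed between dHLH and WT by -1.50 (adjusted p = 0.107) as labelled, and was called at -1.04 (adjusted p = 0.0415) under the exchange, -1.23 (adjusted p = 0.0392) without both libraries and -1.52 (adjusted p = 0.00386) with the block, but without any 1 of the 4 libraries it was not (-1.75 to -1.22, adjusted p of 0.166 to 0.419).

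WT against EV called 0 of 6 genes by edgeR, none at an unadjusted p under 0.05 and none by DESeq2 (0% of all genes in edgeR). The exchange turned the 4 Foxd3 values into 40 and 23.9 CPM with EV and 13 and 16.8 CPM with WT, which no longer overlap (-1.10, SE 0.27, adjusted p = 0.16), and it left Ngfr at -0.09 (SE 0.12, adjusted p = 0.787) and Nes at -0.01 (SE 0.10, adjusted p = 0.968). Sox9, a crest factor outside the 9 genes, had 18.4 and 87.5 CPM in the libraries labelled EV and 19.6 and 85.6 CPM in those labelled WT, so each label held 1 low and 1 high library.

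With the control hairpin shNC, Ngfr, Foxd3 and Nes were lower with WT as well as with dHLH. Ngfr was 518 and 511 CPM in EV shNC, 101 and 107 CPM in WT shNC and 47.6 and 56.8 CPM in dHLH shNC. No values overlapped, and the falls were 4.98-fold with WT (log2 fold change -2.32, SE 0.12, adjusted p = 3.77e-10) and 9.90-fold with dHLH (-3.31, SE 0.13, adjusted p = 3.25e-12). Foxd3 fell from 17.6 and 11.9 CPM to 5.45 and 4.18 CPM with WT (-1.62, SE 0.31, adjusted p = 0.00106) and to 3.33 and 3.73 CPM with dHLH (-2.07, SE 0.32, adjusted p = 9.5e-05). Nes fell from 399 and 395 CPM to 289 and 268 CPM with WT (-0.52, SE 0.11, adjusted p = 0.00167) and to 227 and 216 CPM with dHLH (-0.84, SE 0.11, adjusted p = 1.11e-05). Tfap2b rose, from 84.3 and 101 CPM to 117 and 128 CPM with WT (0.39, SE 0.11, adjusted p = 0.0165) and to 122 and 139 CPM with dHLH (0.49, SE 0.11, adjusted p = 0.00297). With WT 4 of 7 genes tested were called (22.3% of all genes), and with dHLH 4 of 7 (26.4%), and the comparisons share the EV shNC libraries. The Tfap2b calls were lost without EV shNC replicate 1 (adjusted p = 0.222 with WT and 0.0822 with dHLH), without WT shNC replicate 2 (0.148) or without dHLH shNC replicate 2 (0.0637). Tfap2a (30.9 and 30.9 CPM in EV shNC) and Pax3 (40.6 and 37.3 CPM) were called in neither comparison.

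**Figure D2:**
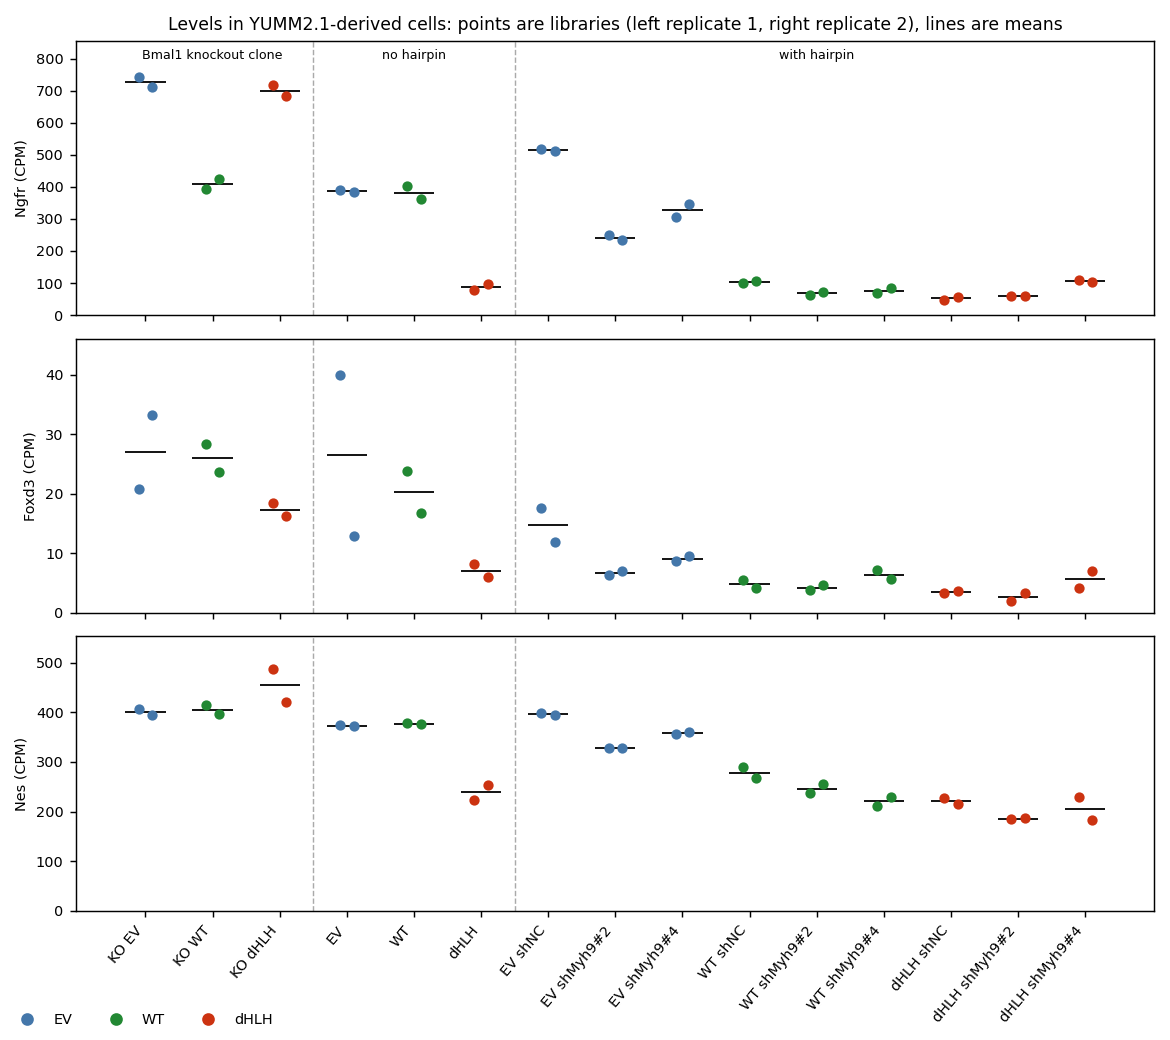
Levels (CPM, axes from 0) of Ngfr, Foxd3 and Nes in the 30 libraries of YUMM2.1 origin, with 1 point per library and a line at each mean. Ngfr is at most 111 CPM in all WT and dHLH groups with a hairpin and in hairpin-free dHLH cells, while hairpin-free WT cells lie at 402 and 361 CPM, beside EV.

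The differences between backgrounds were tested directly. The dHLH effect on Ngfr differed between YUMM2.1 and YUMM2.1 KO by -2.09 (SE 0.19, adjusted p = 2.99e-06) and that on Nes by -0.82 (SE 0.14, adjusted p = 6.97e-04), the 2 of 8 genes called (15.5% of all genes). Under the exchange, Foxd3 (-1.51, adjusted p = 0.00775), Tfap2b (-0.46, adjusted p = 0.00429) and Pax3 (-0.56, adjusted p = 0.0152) were called as well, and without YUMM2.1 EV replicate 2 Foxd3 (-1.81) and Tfap2b (-0.44) were. Without YUMM2.1 EV replicate 1 the difference in Foxd3 was -0.19 (adjusted p = 0.835). The WT effect on Ngfr, -0.84 in the knockout clone and -0.01 in hairpin-free YUMM2.1 as labelled, differed by 0.82 (SE 0.19) with an adjusted p of 0.104. Under the exchange this difference in Ngfr was called (0.74, adjusted p = 0.00837), and without both libraries it was not (0.74, adjusted p = 0.0974). In that test 0 of 8 genes were called as labelled (0.208% of all genes), with Ngfr and Tfap2b at an unadjusted p under 0.05, and DESeq2 called 1, Ngfr. The difference between the control-hairpin and the hairpin-free experiments, a comparison added after the data were seen, was -2.31 for the WT effect on Ngfr (SE 0.18, adjusted p = 3.93e-07) and -1.15 for the dHLH effect (SE 0.18, adjusted p = 0.00321). It was -2.22 and -1.11 under the exchange and -2.21 and -1.15 without both libraries, and was called each time. The WT effects on Foxd3 differed by -1.25 (SE 0.55, adjusted p = 0.204), and this difference was called without YUMM2.1 EV replicate 1 (-2.28, adjusted p = 0.00452). It was -0.65 without EV replicate 2 (adjusted p = 0.57), -0.52 under the exchange (adjusted p = 0.565) and -0.38 without both libraries (adjusted p = 0.851). For Nes the WT effects differed by -0.55 (SE 0.15, adjusted p = 0.0305), which was lost when any 1 of the 8 libraries was left out (adjusted p of 0.0574 to 0.167). Of 7 genes, 2 were called for WT (6.67% of all genes) and 1 for dHLH (1.20%).

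In YUMM1.7 cells no crest gene passed the threshold with either construct. Msx1 did not overlap with EV, at 16.5 and 16.4 CPM, and had 24.7 and 22.9 CPM with WT (0.53, SE 0.13, adjusted p = 0.133) and 20.2 and 20 CPM with dHLH (0.29, SE 0.13, adjusted p = 0.459). Ngfr, at 4 to 28 counts in each library, differed by -1.74 with dHLH (SE 0.62, adjusted p = 0.30). Tfap2b had 307 and 300 CPM with dHLH against 283 and 272 CPM with EV (0.13, SE 0.05, adjusted p = 0.369). By edgeR 0 of 7 genes were called with WT (0.138% of all genes) and 0 of 7 with dHLH (0.630%), DESeq2 called 0 and 0, and 2 and 3 had an unadjusted p under 0.05. The dHLH effect on Nes differed between YUMM2.1 and YUMM1.7 by -0.65 (SE 0.14, adjusted p = 0.00511), with 2 of 8 genes called (12.4% of all genes). The other was Msx1, on 7 counts in YUMM2.1 dHLH and 0 in YUMM2.1 EV, so its fitted difference of 4.71 depends on the prior count. The Msx1 call was lost without either YUMM2.1 EV library, without YUMM2.1 dHLH replicate 1 and without any 1 of the 4 YUMM1.7 libraries (adjusted p of 0.0682 to 0.169), and by DESeq2 (0.0714). For the WT effect, 0 of 8 genes were called by edgeR (0% of all genes), 0 by DESeq2, and 0 had an unadjusted p under 0.05.

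**Figure D3:**
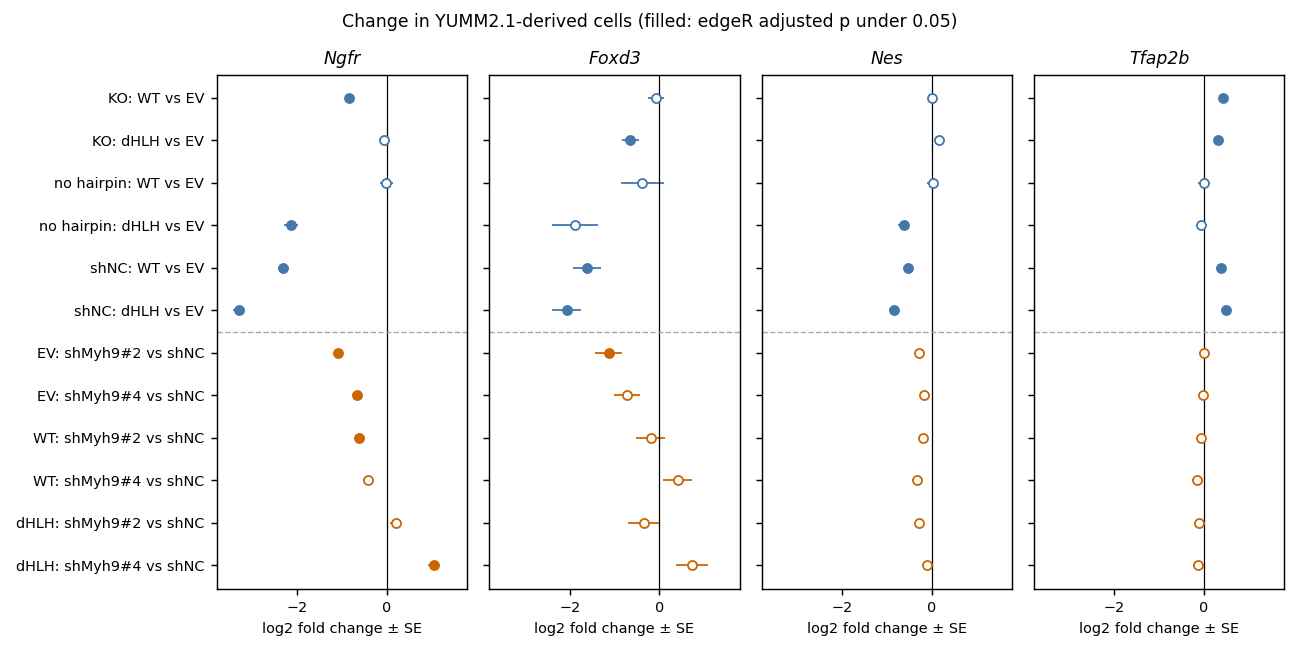
Log2 fold changes with their SE for Ngfr, Foxd3, Nes and Tfap2b in YUMM2.1 KO and YUMM2.1 cells, by construct (blue) and by Myh9 hairpin (orange), with filled points for an edgeR adjusted p under 0.05. Ngfr is called lower in 4 of the 6 construct comparisons and runs from -1.09 to 1.05 across the hairpin comparisons.

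The Myh9 hairpins asked what less non-muscle myosin heavy chain changes in each construct background. Ngfr fell in EV cells and rose in dHLH cells with shMyh9#4. In EV cells Ngfr fell from 518 and 511 CPM with shNC to 249 and 235 CPM with shMyh9#2 (log2 fold change -1.09, SE 0.11, adjusted p = 1e-05) and to 307 and 346 CPM with shMyh9#4 (-0.67, SE 0.11, adjusted p = 0.00234). In WT cells it fell from 101 and 107 CPM to 62.9 and 73.4 CPM with shMyh9#2 (-0.61, SE 0.12, adjusted p = 0.00443) and was 69.5 and 83.8 CPM with shMyh9#4 (-0.42, SE 0.12, adjusted p = 0.131). In dHLH cells it was 60.9 and 59.3 CPM with shMyh9#2 against 47.6 and 56.8 CPM (0.20, SE 0.12, adjusted p = 0.632) and rose to 111 and 102 CPM with shMyh9#4 (1.05, SE 0.12, adjusted p = 1.75e-04). The hairpin effects on Ngfr differed between dHLH and EV cells by 1.29 for shMyh9#2 (SE 0.17, adjusted p = 1.98e-04) and 1.72 for shMyh9#4 (SE 0.17, adjusted p = 1.02e-05). Foxd3 differed there by 1.45 for shMyh9#4 (SE 0.46, adjusted p = 0.0572), and was called without dHLH shMyh9#4 replicate 1 (1.7, adjusted p = 0.0343) but not without any 1 of the other 7 libraries (lowest 1.00, adjusted p up to 0.362). Between WT and EV cells the effects on Ngfr differed by 0.48 (SE 0.16, adjusted p = 0.0992) and 0.26 (SE 0.16, adjusted p = 0.604). The calls of Ngfr were lost for shMyh9#4 in EV cells without EV shNC replicate 1 (adjusted p = 0.051), and for shMyh9#2 in WT cells without WT shNC replicate 2 (0.0569) or WT shMyh9#2 replicate 1 (0.106).

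Myh9 itself had 697 and 665 CPM in EV shNC, 231 and 246 CPM with shMyh9#2 and 487 and 475 CPM with shMyh9#4. In EV cells the hairpin with less Myh9 had the lower Ngfr, whereas in dHLH cells shMyh9#4, with 681 and 645 CPM of Myh9 against 907 and 877 CPM in shNC and 292 and 266 CPM with shMyh9#2, had the higher Ngfr. Among the other crest genes, Foxd3 fell with shMyh9#2 in EV cells, from 17.6 and 11.9 CPM to 6.39 and 7.04 CPM (-1.13, SE 0.30, adjusted p = 0.032), a call lost without EV shNC replicate 1 (-0.82, adjusted p = 0.314) or either shMyh9#2 library (0.219 and 0.12). In dHLH cells with shMyh9#4 Foxd3 had 4.25 and 7.05 CPM against 3.33 and 3.73 CPM (0.73, SE 0.35, adjusted p = 0.167). Nes lay between 182 and 361 CPM in the 12 libraries with a Myh9 hairpin and was called in none of the 6 comparisons.

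Of 7 genes tested in each hairpin comparison, edgeR called 2 in EV cells with shMyh9#2 (6.65% of all genes) and 1 with shMyh9#4 (1.71%). EdgeR called 1 in WT cells with shMyh9#2 (4.76%) and 0 with shMyh9#4 (0.236%), where Ngfr and Nes had an unadjusted p under 0.05 and DESeq2 called Ngfr. In dHLH cells edgeR called 0 with shMyh9#2 (0.559%), as did DESeq2, with Nes at an unadjusted p under 0.05, and 1 with shMyh9#4 (15.1%). For the differences between dHLH and EV cells, 1 of 7 was called with each hairpin (3.29% and 8.51% of all genes), and between WT and EV cells 0 of 7 (5.18% and 0.741%). DESeq2 called 0 there as well, and 3 genes with shMyh9#2 and 1 with shMyh9#4 had an unadjusted p under 0.05.

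Around these genes, a list of 22 genes of the crest stem-like melanoma state and the Schwann lineage held more genes that fell than rose where Ngfr fell in parental YUMM2.1 cells with a construct. With dHLH and no hairpin, 2 of its 19 genes tested rose and 10 fell (13.2% of all genes called), with a median log2 fold change of -1.57 beside -0.01 over all genes. Erbb3, the neuregulin receptor of Schwann cells, fell from 108 to 7.30 CPM (-3.85, SE 0.42, adjusted p = 0.00333), and the Schwann factors Pou3f1 (-3.97, SE 0.36) and Egr2 (-3.81, SE 0.33) fell too, while the GDNF family receptor Gfra2 (1.22, SE 0.14) and the semaphorin receptor Nrp2 (1.28, SE 0.20) rose. With shNC, 5 rose and 11 fell with WT (median -1.12, 22.3% of all genes called) and 7 rose and 11 fell with dHLH (-1.21, 26.4%), among them Pou3f1 at -2.41 (SE 0.20) and -6.05 (SE 0.28). In the knockout clone, where Ngfr fell with WT, 7 of 19 rose and 1 fell with WT (median 0.13, 11.2% of all genes called), led by the water channel Aqp1 (2.07, SE 0.13) and S100b (1.17, SE 0.10), and with dHLH 4 rose and 1 fell (0.11, 10.9%). As labelled, 0 of 19 were called between WT and EV without a hairpin (0% of all genes), and 0 of 14 in either YUMM1.7 comparison (0.138% with WT and 0.630% with dHLH). In EV cells, where Ngfr fell, 3 rose and 5 fell with shMyh9#2 (6.65%), and 1 rose and 1 fell with shMyh9#4 (1.71%). WT cells had 0 rising and 2 falling with shMyh9#2 (4.76%), and 0 called with shMyh9#4 (0.236%). In dHLH cells 0 were called with shMyh9#2 (0.559%). With shMyh9#4, where Ngfr rose, 9 rose and 0 fell (15.1%).

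**Figure D4:**
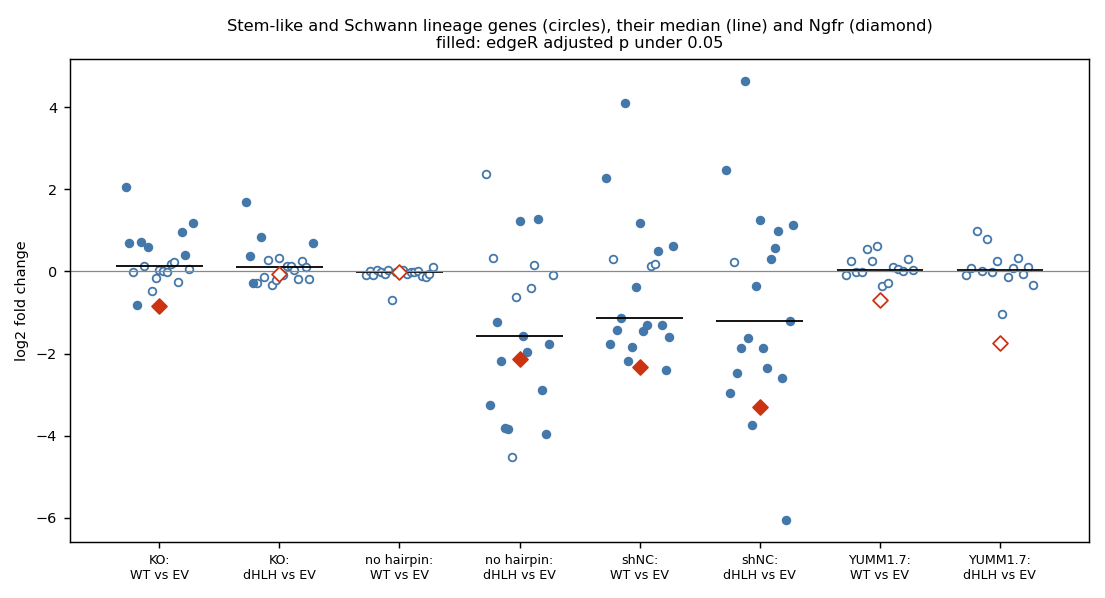
Log2 fold changes of the genes of the stem-like and Schwann lineage list (circles), their median (line) and Ngfr (diamond) in 8 construct comparisons, filled where edgeR's adjusted p is under 0.05. The medians are -1.57, -1.12 and -1.21 in hairpin-free dHLH, WT shNC and dHLH shNC cells and between -0.02 and 0.13 in the other 5 comparisons.

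The list of 30 other neural crest regulators split. With dHLH and no hairpin, 3 of 16 tested rose and 3 fell (median 0.31, 13.2% of all genes called): Sox10, the crest and melanocyte master factor, fell from 495 to 69.0 CPM (-2.82, SE 0.16, adjusted p = 6.21e-04), Sox6 by 2.28 (SE 0.17) and Sox5 by 1.81 (SE 0.21), while the transition factors Snai2 (2.59, SE 0.33) and Twist1 (0.91, SE 0.21) and the homeodomain gene Dlx3 (4.94, SE 0.63) rose. With shNC, 4 of 16 rose and 4 fell with WT (22.3% of all genes called) and 6 rose and 4 fell with dHLH (26.4%), and Sox9 rose in each, by 1.56 and 1.52 (SE 0.11 for each). Of 14 genes of neurotrophin signalling tested with dHLH and no hairpin, 2 rose and 3 fell (13.2% of all genes called): the proneurotrophin co-receptors Sort1 (-1.57, SE 0.16) and Sorcs2 (-2.25, SE 0.23) and the adaptor Traf4 (-0.69, SE 0.18) fell, and Nradd, a relative of Ngfr (0.96, SE 0.17), and Lingo1 (1.59, SE 0.34) rose. Their median was 0.01.

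Among the smaller lists, Mcam, an adhesion gene of melanoma, was the 1 of 3 genes tested in the list of Pax3 and AP-2 targets to fall with dHLH and no hairpin (-2.87, SE 0.27, adjusted p = 0.0021), where 13.2% of all genes were called. Of the filament partners of nestin, Synm fell there (-1.88, SE 0.28), the 1 of 6 called, a share near the 13.2% of all genes, and in the knockout clone Gfap rose with WT (3.05, SE 0.46) and dHLH (2.75, SE 0.47), from 0.67 CPM with EV to 5.74 and 4.64 CPM. The AP-2 co-activator Cited1 was the only gene of these lists called in B16, where 0.440% of all genes were, higher in the libraries labelled B16 KO at 75.5 CPM than in Ctrl at 19.6 CPM (1.94, SE 0.20, adjusted p = 0.0357). Of 5 markers of other cell types tested, Pdgfrb, a receptor of pericytes and fibroblasts, was the 1 that rose with dHLH and no hairpin (13.2% of all genes called), from 1.82 to 8.62 CPM. With shNC, Pdgfrb and the endothelial cadherin Cdh5, 2 of 5 tested, rose with each construct (22.3% and 26.4% of all genes called), from 1.95 CPM to 5.40 and 11.1 CPM and from 2.84 CPM to 12.4 and 8.0 CPM. The summed level of the 12 markers was 13.6 to 39.7 CPM in all parental YUMM2.1 libraries, and their part in the results was not tested.

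Across the 20 group means, Foxd3 and Ngfr followed each other, with a Pearson correlation of 0.988 on log2 CPM. This is a description over groups that share cell lines, with YUMM2.1 groups high and all others near 0 for both genes. Among 11077 protein-coding candidates, the sphingosine-1-phosphate receptor S1pr3 (0.994) and the potassium channel Kcna6 (0.992) followed Ngfr most closely, and the same 2 genes followed Foxd3 (0.990 each). Tfap2b was followed by Prrx1, Cavin3 and Col18a1 (0.992 to 0.994), Pax3 by Prkaa2, Adcy3 and Pctp (0.975 to 0.980), Msx1 by Slc14a1, Igfbp6 and Dmp1 (0.969 to 0.971), Nes by 9530053A07Rik, Akr1b8 and Col11a1 (0.974 to 0.976), and Tfap2a by Meis2, Man2b1 and Spg21 (0.936 to 0.953).

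The order of the levels in the YUMM2.1 groups shows where neighbors could not be separated. Ngfr ran from 727 CPM in YUMM2.1 KO EV and 699 CPM in KO dHLH, whose libraries overlapped, through EV shNC (514 CPM) and KO WT (409 CPM) to YUMM2.1 EV and WT (388 and 381 CPM), which overlapped again. It went on with EV shMyh9#4 (326 CPM) and EV shMyh9#2 (242 CPM) and dropped to 107 CPM in dHLH shMyh9#4 and 104 CPM in WT shNC, another pair that overlapped. Next came hairpin-free dHLH (86.8 CPM) and WT shMyh9#4 (76.6 CPM), each of which overlapped the group after it. The lowest means were 68.2 CPM in WT shMyh9#2, 60.1 CPM in dHLH shMyh9#2 and 52.2 CPM in dHLH shNC. For Foxd3, the 6 highest groups, from 27.1 CPM in KO EV to 14.7 CPM in EV shNC, overlapped their neighbors in that order.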

How the data were processed

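RNA of cultured cells was sequenced in 40 QuantSeq 3′ libraries. Per the study's methods, the authors aligned reads with bowtie2 to mm10 and counted them per Ensembl gene with RSEM, and deposited whole-number counts; strand and Ensembl release are not given in the sources used here. Such 3′ counts carry no length term, so levels were compared within a gene. R 4.3.3 and edgeR 4.0.16 were used: TMM scaling, filterByExpr, and 1 quasi-likelihood fit per experiment (B16; YUMM2.1 KO; YUMM2.1; YUMM1.7; hairpins), with joint fits for lines and differences of effects, each adjusted over all genes tested. DESeq2 1.42.0 was an alternative. The code was tested on simulated data. Counting intervals and floors (3 counts over the group) cover counting error only. Symbols were found for 99.63% of IDs. The main fits used group only. In hairpin-free YUMM2.1 as labelled, deviations of same-numbered libraries correlated at 0.180 to 0.391 in all 3 pairs of groups. The replicate number was therefore tried as a block. Under the exchanged names they correlated at -0.149 to 0.190, with 1 of 3 over 0.1. Pairing and the naming of these libraries thus cannot be told apart. From each list, at most 3 genes in each direction with the largest called change and a mean of at least 10 counts are named. Genes resembling a member are the 3 protein-coding ones with the highest correlation of group means. The members and lists were chosen with earlier results of these data known. Not every allele of the YUMM lines is reported here.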

Additional observations from a re-analysis of the deposited data

Results flagged for a closer look

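The results here are effects of 1 contrast that differed between backgrounds by a test of the difference itself, in edgeR with an adjusted p under 0.05. The dHLH effect on Ngfr was lower in YUMM2.1 than in YUMM2.1 KO by -2.09 (SE 0.19) and that on Nes by -0.82 (SE 0.14). Between YUMM2.1 and YUMM1.7 the dHLH effect on Nes differed by -0.65 (SE 0.14), and that on Msx1 by 4.71 (SE 1.33), which rests on 7 counts. The effect of shMyh9#2 on Ngfr differed between dHLH and EV cells by 1.29 (SE 0.17), and that of shMyh9#4 by 1.72 (SE 0.17). Between cells with shNC and cells without a hairpin, the WT effect differed by -2.31 for Ngfr (SE 0.18) and by -0.55 for Nes (SE 0.15), and the dHLH effect on Ngfr by -1.15 (SE 0.18). The call for Nes in the WT effect was lost when any 1 of the 8 libraries was left out. It was also lost without a filter, and without both YUMM2.1 libraries whose names differ between sources. The comparison with and without a hairpin was chosen after seeing the data, and experiment and hairpin cannot be told apart in it.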

How the results depend on the processing

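No called fold change of a member changed sign in any setting, while 69 of 166 that were not called did so in 1 setting or more, with no call after the change. Of 594 alternative values of called fold changes, 534 kept their call and 60 lost it, 42 of these by leaving 1 library out. Counts of members called stayed within 1.5 times under DESeq2 size factors and a mean of at least 10 counts. With the replicate number as a block all 31 counts did too. The block follows the names as labelled, and pairing was not shown. It added Foxd3 for dHLH against EV (-1.78) and against WT (-1.52). It also added Tfap2b in the difference of dHLH effects between YUMM2.1 and YUMM2.1 KO (-0.38, adjusted p = 0.039), with no other change of a call. In the other experiments, deviations of same-numbered libraries correlated at 0.102 in B16, 0.0239 to 0.0744 in YUMM2.1 KO, -0.0571 to 0.0757 in YUMM1.7 and -0.138 to 0.191 with hairpins.

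The other settings moved these counts, and the cause was not tested. In 1 fit of all 40 libraries, the count went to 1 in B16 (from 0), for WT (from 2) in YUMM2.1 KO, for shMyh9#2 in EV cells (from 2), for YUMM2.1 KO EV against YUMM2.1 EV (from 0) and for the dHLH effect between YUMM2.1 and YUMM1.7 (from 2), and to 0 for dHLH against EV and against WT in YUMM2.1 KO, shMyh9#4 in EV cells and shMyh9#2 in WT cells. DESeq2 gave 1 for dHLH in YUMM2.1 KO, for shMyh9#4 in WT cells, for the WT effect between YUMM2.1 and YUMM2.1 KO and for the dHLH effect between YUMM2.1 and YUMM1.7. Without a filter the count was 2 for dHLH against WT in YUMM2.1 KO, and 1 for WT in YUMM1.7, for YUMM2.1 KO EV against YUMM2.1 EV, for the WT effect between YUMM2.1 and YUMM2.1 KO and for the WT effect with and without shNC. The exchanged names gave 4 for dHLH in YUMM2.1, 1 for YUMM2.1 KO EV against YUMM2.1 EV, 2 and 5 for the WT and dHLH effects between YUMM2.1 and YUMM2.1 KO, and 2 for the dHLH effect with and without shNC. Leaving both libraries out gave 1, 4, 1 and 1 for YUMM2.1 KO EV against YUMM2.1 EV, the dHLH effect between YUMM2.1 and YUMM2.1 KO, that between YUMM2.1 and YUMM1.7, and the WT effect with and without shNC.

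Leaving out 1 library at a time gave 0 to 2 in B16, 1 to 2 for WT and 0 to 3 for dHLH in YUMM2.1 KO, and 1 to 2 for dHLH against EV and against WT in YUMM2.1. It gave 1 to 2 for shMyh9#2 and 0 to 1 for shMyh9#4 in EV cells, 0 to 1 for shMyh9#2 in WT cells, and 1 to 2 for the shMyh9#4 effect between dHLH and EV cells. It gave 0 to 2 for YUMM2.1 KO EV against YUMM2.1 EV, 2 to 4 and 1 to 2 for the dHLH effect of YUMM2.1 against YUMM2.1 KO and YUMM1.7, and 1 to 2 for the WT effect with and without shNC. A group left with 1 library is assumed to vary like the others. Members at a few counts (Msx2, and Tfap2c and Msx1 outside YUMM1.7) have little precision at this depth. The left-out bounds and ratios between lines were chosen after seeing the data.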
